A study of Mus musculus with 4 samples.

Results

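Clusterin is a single gene, Clu, followed here through the cell classes of the mouse ventral prostate. It is 1 of the 17896 genes listed in 4 single-cell tables that hold 8091 usable cells. The ventral prostates came from C57BL6j wild-type mice, 2 in a sham group and 2 in a group labelled te2, a code the labels do not spell out. Hormone pellets were implanted 2 weeks before harvest, and the series concerns an imbalance of steroid hormones. The pellet content of each group and the age of the mice are not given in the sources used here. Each library is 1 animal, whose paired lobes were dissociated together in the cold with a bacterial protease, so the lobes cannot be compared. The gene was chosen by its measured te2 and sham levels per cell class, its share of positive cells and the genes that vary with it. Its levels, shares and fold differences are therefore given as descriptions with no test.

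Clusterin is a secreted glycoprotein that binds unfolded proteins outside the cell and keeps them from aggregating, as heat shock proteins do inside it. It also binds lipids as apolipoprotein J, blocks assembly of the complement membrane attack complex, and is taken up by receptors of the LDL receptor family and by TREM2. In the prostate it is best known as a transcript that climbs in the involuting gland after androgen withdrawal, under its older names testosterone-repressed prostate message-2 and sulfated glycoprotein-2. The counts come from the 3' end of transcripts and do not separate its transcript forms.

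Cells were classed by the share of their unique molecular identifiers (UMIs, 1 per captured transcript molecule) that fell on marker genes, without use of Clu. Luminal cells, the secretory epithelium, had at least 10% of UMIs on Sbp and Spink1. The others were taken in turn: basal cells (Krt5, Krt14, Krt15, at least 0.2%), fibroblasts (Col1a2, Col3a1, Dcn, at least 0.3%) and macrophages (C1qa, C1qb, C1qc, at least 0.3%). Last came proximal cells (Krt4, Wfdc2, Cxcl17, at least 0.1%), named after the epithelium near the urethra, although no position was measured. These rules gave 3226 luminal, 1216 proximal, 1368 basal, 553 fibroblast and 294 macrophage cells. A further 81 lymphocytes (T cell genes) and 59 endothelial cells were set apart, and 1294 cells fell in no class. The classes are ranges cut from a score, and many cells lay near a cut. Between 34.9% and 60.0% of proximal cells per library had less than 0.2% of UMIs on the proximal genes, and 7 of the 35 proximal cells of sham 1 entered on a single UMI. Luminal cells with under 20% of UMIs on their genes were 15.5% and 19.5% in sham and 40.3% and 32.8% in te2.

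The sham libraries were the shallower ones. Their kept cells had medians of 1203.5 and 1722 UMIs, and those of te2 3426.5 and 4075. The 5 main classes carried their defining genes with few gaps. Dsc3 was at 0 in the basal cells of both sham libraries, Aqp3 in those of sham 1, Psca and Ly6d in the proximal cells of sham 1, and Pbsn in the luminal cells of sham 1. Luminal product RNA was spread through all sham cells, with a median of 2.96% to 4.93% of UMIs on Sbp and Spink1 in sham fibroblasts and macrophages against 0.161% to 0.517% in te2. Seminal vesicle transcripts were at or near 0 in every class. Of the kept barcodes, 7 occurred in more than 1 library.

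In sham glands Clu was a gene of proximal cells. It stood at 2232 and 1566 CPM (UMIs per 1000000 UMIs of the summed class) in the proximal cells of sham 1 and sham 2. Their luminal cells stood at 120 and 69.0 CPM. In te2 the luminal cells of both libraries were far higher, at 796 and 1035 CPM, and the proximal cells were not, at 1126 and 2114 CPM. The luminal groups did not overlap, and the proximal groups did. The proximal class was 2.14% and 8.38% of kept cells in sham and 27.4% and 17.8% in te2. Its other genes differed too: Smr2 stood at 0 CPM in both sham libraries and at 973 and 452 CPM in te2 (scaled as in the tests below). Whether the class holds like cells in both groups was not tested.

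Over the 2 libraries of a group, luminal Clu went from 94.7 ± 36.4 CPM (SD, n = 2) in sham to 915 ± 169 CPM in te2, a ratio of 9.67. The lower te2 library stood at 6.61 times the higher sham library. Proximal Clu was 1899 ± 470 CPM in sham and 1620 ± 699 CPM in te2, a ratio of 0.853. Within each te2 library the proximal level was the higher, and the proximal value of te2 1 lay near the luminal value of te2 2. Within sham, every proximal library lay above every luminal library by more than the spread of either class.

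**Figure D1:**
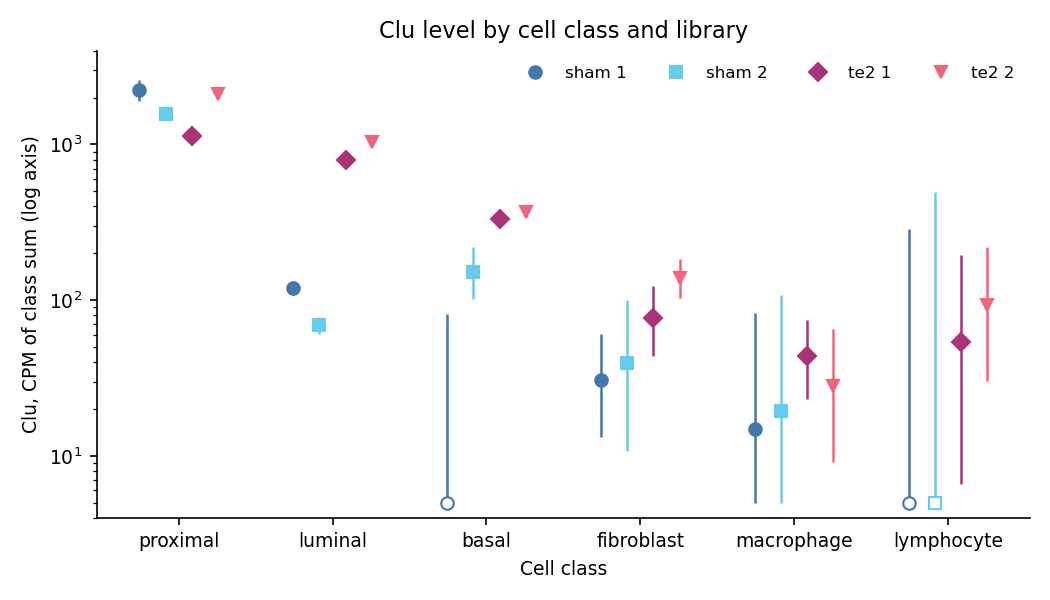
Clu level in CPM of the summed class counts (log axis) for 6 cell classes, with 1 marker per library and vertical lines for exact 95% Poisson intervals, which cover counting error only. Open markers at the foot of the axis (5 CPM) stand for 0 counts, and intervals are drawn from that floor up. Luminal te2 libraries (796 and 1035 CPM) lie above luminal sham libraries (120 and 69.0 CPM), while the proximal libraries of the groups interleave.

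Basal cells, fibroblasts and macrophages held less Clu than proximal cells in every library. Basal cells, which line the basement membrane under the luminal layer, had no Clu UMI in sham 1 and 28 in sham 2, and 516 and 631 in the te2 libraries. These counts come to 0 and 153 CPM against 333 and 370 CPM, a fitted log2 difference of 1.60 that was 0.59 with class thresholds doubled. For the 44 basal cells of sham 1, the exact 95% interval reaches up to 81.5 CPM. Fibroblasts stood at 30.8 and 39.3 CPM in sham and at 76.5 and 140 CPM in te2. In te2 1, the 4 fibroblasts below the doubled class threshold held 884 CPM and the rest 49.4 CPM. The 6 such cells of te2 2 held 284 CPM and the rest 129 CPM. Sham fibroblasts held 0 CPM below that threshold, and 33.7 and 46.6 CPM above it. Macrophages had 1 Clu UMI in each sham library, and 13 and 5 in te2 (43.6 and 28.0 CPM), of which 12 in te2 1 came from a single cell. In te2, fibroblasts and lymphocytes (54.2 and 93.8 CPM, from 2 and 5 UMIs) overlapped, and both macrophage libraries lay below them, with counting intervals that overlapped those of lymphocytes. Endothelial cells had no Clu UMI in 18 and 4 sham cells and 8 and 3 UMIs in 27 and 10 te2 cells.

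Basal cells near the class cut held most Clu per UMI in te2. In te2, basal cells with 0.2% to 0.4% of UMIs on the keratin genes held 821 and 1146 CPM of Clu, and those above 0.4% held 138 and 192 CPM. The sham 2 values for the same ranges were 147 and 159 CPM. Markers of proximal cells moved with the basal value: their summed level in basal cells was 265 and 649 CPM in sham and 1988 and 1703 CPM in te2. Of these 7 markers, 4 were above 0 in the basal cells of sham 1, with Krt4 and Psca among those at 0, and all 7 were above 0 in the others. Their part in the basal Clu level was not tested.

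The luminal and proximal shares of all Clu UMIs did not separate the groups. Proximal cells made up 2.14% and 8.38% of kept sham cells and gave 26.2% and 61.6% of all Clu UMIs there. Luminal cells made up 64.5% and 64.1% of sham cells and gave 56.9% and 26.7%. In te2, luminal cells were 16.9% and 23.0% of cells and gave 25.3% and 31.2% of the Clu UMIs, and proximal cells were 27.4% and 17.8% of cells and gave 44.0% and 35.3%. Cells in no class gave 15.4% and 8.38% in sham, at 340 and 169 CPM, and 25.4% and 29.3% in te2, at 1123 and 1744 CPM. Over all kept cells, Clu stood at 169 and 196 CPM in sham and at 879 and 1288 CPM in te2.

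The share of cells with a Clu UMI was also higher in te2 luminal cells, with and without equal depth. Unthinned, 21.2% (exact 95% binomial interval 18.8 to 23.8) and 17.1% (15.1 to 19.3) of sham luminal cells had a Clu UMI, against 78.3% (73.9 to 82.3) and 79.8% (75.9 to 83.3) of te2 luminal cells. With every cell thinned to 500 UMIs at random, the luminal shares became 7.10% and 3.95% in sham and 24.7% and 28.5% in te2. No kept cell was left out by this thinning. Intervals cover counting error only.

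For proximal cells the thinned shares were 45.7% and 42.6% in sham and 37.7% and 47.6% in te2. The unthinned shares, 65.7% and 70.4% against 81.0% and 87.0%, did not overlap, and the median proximal cell had 1849 and 1645 UMIs in the sham libraries against 5131 and 6591 in te2. Basal cells reached 0% and 2.50% in sham and 7.78% and 6.98% in te2 after thinning. As a background, lymphocytes, which are not known as a source of Clu, had 0 of 16 and 0 of 8 cells with a Clu UMI in sham (exact intervals up to 20.6% and 36.9%) and 2 of 23 and 2 of 34 in te2. Thinned, the te2 lymphocyte shares were 0% and 5.88%, at median depths of 1522 and 1495.5 UMIs before thinning. The thinned te2 basal and fibroblast shares lay within the range those lymphocyte intervals span. The luminal and proximal te2 shares lay above the te2 lymphocyte intervals, which reached 14.8% and 19.7%.

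**Figure D2:**
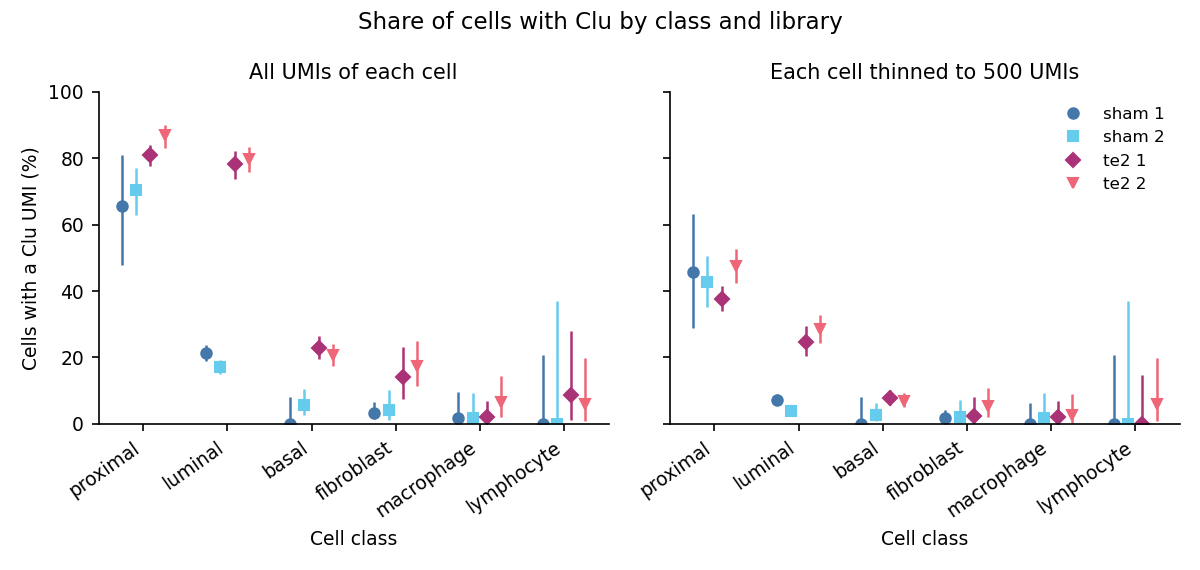
Percent of cells with at least 1 Clu UMI by class and library, on all UMIs of each cell at the left and after thinning each cell to 500 UMIs at the right, with exact 95% binomial intervals. Thinning brings the proximal libraries of both groups together (37.7% to 47.6%) and leaves the luminal te2 libraries (24.7% and 28.5%) above the luminal sham libraries (7.10% and 3.95%).

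RNA from 1 source keeps its genes in 1 ratio in every class of a library, so Clu was also set against the luminal product gene Sbp, which the class rule uses. Luminal cells held 5.08 and 4.65 Clu UMIs per 1000 Sbp UMIs in te2, and 0.595 and 0.353 in sham. Proximal cells held 395 and 330 in te2 and 343 and 120 in sham. Over all kept cells of a library the ratio was 1.03 and 1.28 in sham and 18.4 and 13.8 in te2. Luminal cells lay below the ratio of their library in both groups and proximal cells above it. A rule that puts cells with much Sbp in the luminal class, and leaves proximal cells with little, sets this order.

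Clu was unevenly spread among te2 luminal cells. The median luminal cell held 3.76 and 3.92 Clu UMIs per 10000 UMIs in te2 1 and te2 2, and 0 in both sham libraries. The 90th percentile was 20.8 and 25.2 in te2 and 3.91 and 2.68 in sham. The 10% of te2 luminal cells with the most Clu carried 50.8% and 59.4% of all luminal Clu UMIs, and single cells reached 147 and 280 UMIs. In sham, where most luminal cells had no Clu UMI, the top 10% carried 67.0% and 65.2%, and single cells reached 8 and 4 UMIs. At the same time 21.7% and 20.2% of te2 luminal cells had no Clu UMI, where equal expression per UMI would leave 5.48% and 3.66% at 0. In sham 2 the luminal zeros (82.9%) were close to that value (82.5%), and in sham 1 they were 78.8% against 74.9%.

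Proximal cells were uneven in every library. Their median lay between 7.86 and 11.1 Clu UMIs per 10000 in the 4 libraries. The cells without a Clu UMI were 34.3% and 29.6% in sham, where equal expression would leave 6.55% and 11.6%, and 19.0% and 13.0% in te2, against 6.61% and 1.77%. Basal Clu was carried by few cells, since the top 10% of cells held 84.1% and 90.3% of it in te2. A single basal cell held 75 of the 516 Clu UMIs in te2 1, 112 of the 631 in te2 2 and 10 of the 28 in sham 2.

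**Figure D3:**
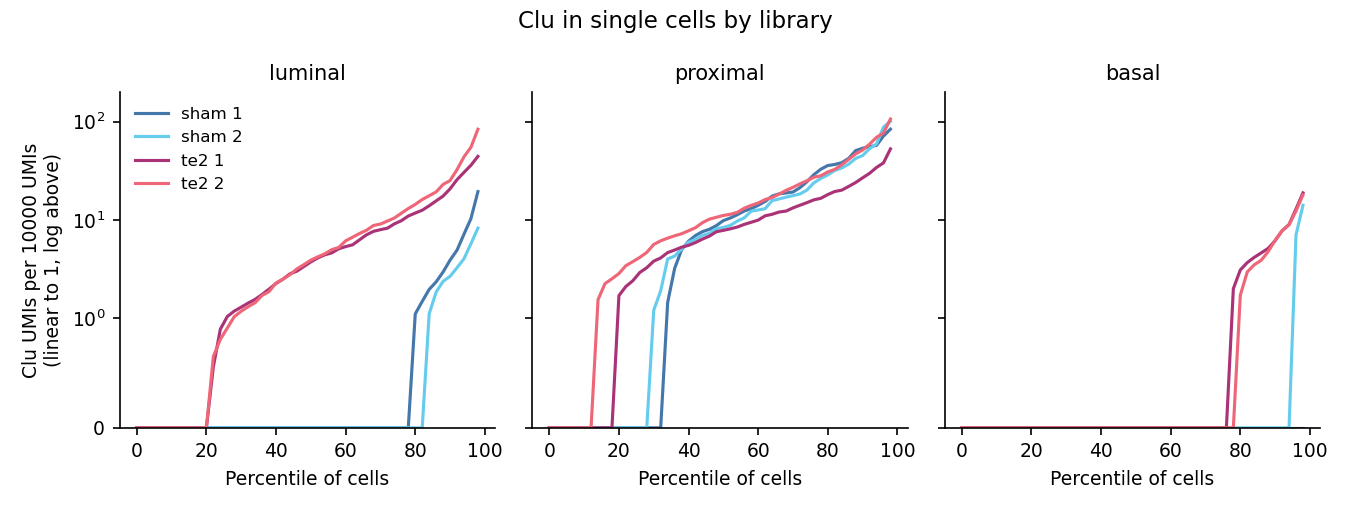
Clu UMIs per 10000 UMIs of a cell (linear up to 1, log above) at each percentile of the luminal, proximal and basal cells of a library, with 1 line per library and the top 2 percentiles left off. The luminal te2 lines leave 0 near the 20th percentile and the sham lines near the 80th, while the proximal lines of both groups interleave, with te2 1 the lowest in the upper range.

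In te2 the Clu level was lower in more secretory cells above a 10% share, whereas in sham it dropped only at or below that cut. Luminal, proximal and unclassed cells were binned by their share of Sbp and Spink1 UMIs. In te2 the level was 1147 and 2677 CPM at 5% to 10%, 1203 and 1469 at 10% to 20%, 575 and 998 at 20% to 40% and 270.1 and 483 above 40%. In sham it was 282 and 183 CPM at 5% to 10% and then flat, between 63.1 and 131 CPM in all bins above 10%. The most secretory te2 cells, with over 40% of their UMIs on these products, thus held more Clu than sham cells of the same range (107 and 85.2 CPM).

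Within te2 luminal cells split into tertiles of that share, the lowest tertile held 1284 and 1473 CPM and the highest 407 and 748 CPM. In sham the tertiles ran from 115 to 126 CPM in sham 1 and from 60.6 to 80.1 CPM in sham 2. The split by secretory share is not independent of the class rule, which uses the same genes, and a cell with more product RNA has less room for all other genes.

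**Figure D4:**
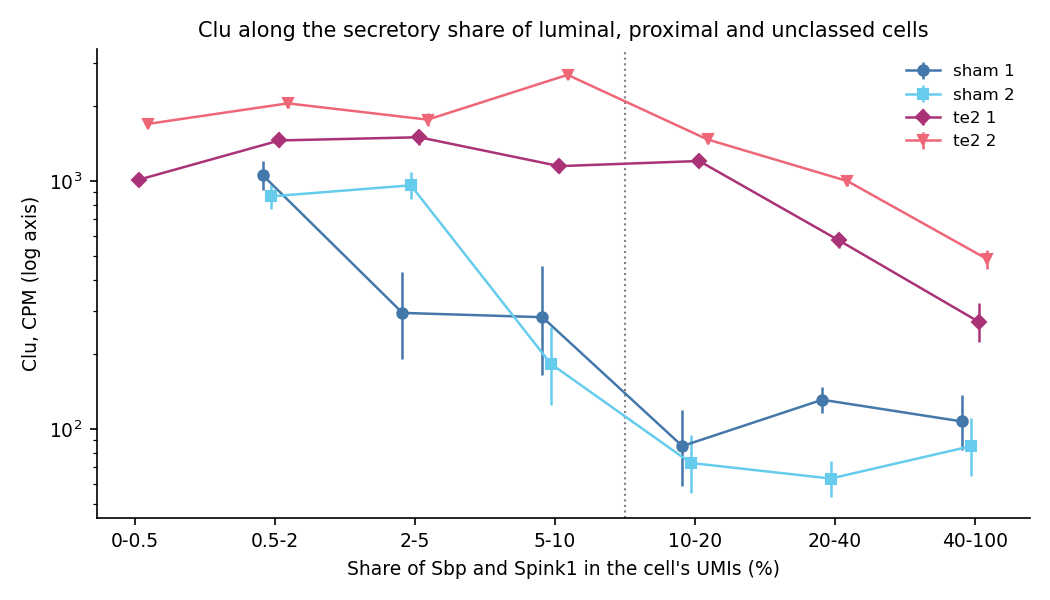
Clu level in CPM (log axis) of luminal, proximal and unclassed cells binned by the percent of their UMIs on Sbp and Spink1, with 1 line per library, exact 95% Poisson intervals and bins of under 20 cells left out. The dotted line marks the 10% cut of the luminal class, to the right of which te2 libraries run from 1203 and 1469 to 270.1 and 483 CPM while sham libraries stay at 63.1 to 131 CPM.

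Genes of the proximal marker list, Psca above all, were higher in te2 luminal cells, as Clu was. The 7 proximal markers, which include the rule's own Krt4, Wfdc2 and Cxcl17, summed to 33.6 and 39.5 CPM in sham luminal cells. In te2 luminal cells they summed to 1239 and 1031 CPM. Of the 7, Psca alone was at 0 in the luminal cells of both sham libraries. Scaled as in the tests below, Psca stood at 771 and 660 CPM in te2 luminal cells. It stood at 628 and 503 CPM in te2 proximal cells and at 0 and 59.7 CPM in sham proximal cells. In te2, Psca was thus no higher in the proximal class than in the luminal class. In the 65 and 83 te2 luminal cells without a single UMI of Krt4, Wfdc2, Cxcl17, Psca or Krt7, Clu stood at 453 and 380 CPM. In the 1012 and 1186 such sham cells it stood at 120 and 63.6 CPM. These te2 cells had a median of 2441 and 6553 UMIs, fewer than the rest of their class. Clu in te2 luminal cells without a UMI of these genes thus lay above both sham libraries, and below te2 luminal cells with such a UMI (831 and 1124 CPM). Luminal cells with none of them are called cells without proximal marker UMIs below, after the marker list. The share of the luminal difference that goes with these markers was not tested further.

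Cells with a UMI of a gene are on average deeper, so splits by detection are given beside shares thinned to 500 UMIs. Luminal te2 cells with Ly6a, a surface protein of the Ly6 family, held 1378 and 1980 CPM of Clu, and those without it 425 and 376 CPM. Their thinned shares of Clu-positive cells were 41.4% and 47.2% against 16.2% and 17.4%. Cells with Psca, a prostate stem cell antigen of the same family, held 976 and 1487 CPM and those without 511 and 493 CPM, with thinned shares of 31.8% and 35.8% against 16.0% and 21.1%. For Fxyd4, whose product modulates the sodium-potassium pump, the values were 1508 and 2456 CPM with it and 563 and 622 CPM without, and the thinned shares were 38.8% and 46.8% against 20.8% and 24.0%. In both te2 libraries each of these splits went the same way.

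For 3 other genes the luminal te2 splits were narrower or uneven. Krt7, a simple-epithelial keratin, split luminal te2 cells into 808 and 1094 CPM with a UMI and 766 and 898 CPM without, with thinned shares of 27.8% and 30.3% against 19.9% and 25.5%. Proliferating cells, taken as those with a UMI of Mki67, held 805 and 638 CPM of Clu against 793 and 1139 CPM in the others, and their thinned shares were 19.2% and 22.7% against 26.1% and 29.5%. For Smr2, a submaxillary gland secretory gene, Clu stood at 655 CPM with it and 817 without in te2 1, and at 1609 and 943 CPM in te2 2. The thinned shares were 15.6% against 25.9% in te2 1 and about equal in te2 2, at 28.8% against 28.4%.

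In proximal te2 cells, those with Fxyd4 held 1358 and 2587 CPM of Clu and those without it 800.1 and 1297 CPM, with thinned shares of 42.6% and 53.6% against 33.8% and 40.1%. Cells with Smr2 held 1026 and 1761 CPM and those without it 1259 and 2424 CPM, with thinned shares of 38.1% and 43.2% against 37.4% and 50.4%. The widest of these 3 splits was that for Ly6c1, another Ly6 surface protein: 1491 and 2747 CPM with it against 708 and 847 CPM without. Its thinned shares were 49.8% and 62.9% against 29.9% and 28.3%.

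Genes that followed Clu from cell to cell were ranked by Pearson r within a class and library, in cells of at least 1000 UMIs, over genes detected in at least 10% of the cells of both te2 libraries. There were 6607 such genes in luminal cells (370 and 460 te2 cells) and 6951 in proximal cells (579 and 351). The ranking used the lower of the 2 te2 values. Cells of a library share its free RNA and depth, counts are sparse, and r is given as a description.

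In luminal te2 cells Ly6a had the highest r with Clu, at 0.48 and 0.59, followed by Ly6c1 at 0.45 and 0.49. Next came Ly6e (0.39 and 0.39), the third Ly6 gene among the top 10, and Lrg1, a secreted leucine-rich glycoprotein (0.39 and 0.42). Pigr, the receptor that carries IgA across epithelium, had 0.45 and 0.38. The alcohol dehydrogenase gene Adh6a had 0.37 and 0.48, the metalloproteinase inhibitor gene Timp2 0.36 and 0.36, and Fxyd4 0.35 and 0.41. The mucosal chemokine gene Cxcl17, a class rule gene, had 0.35 and 0.33. The median r of all luminal genes was 0.03 and 0.02. With cells thinned to 1000 UMIs, r was 0.16 and 0.34 for Ly6a, 0.02 and 0.24 for Lrg1 and 0.23 and 0.07 for Adh6a.

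At the other end, luminal cells with more Clu had less Gpx3, a secreted glutathione peroxidase (r of -0.38 and -0.32), Ccnd2, a D-type cyclin (-0.30 and -0.30), and Sbp itself (-0.43 and -0.29). The peroxisomal oxidase gene Acox3 (-0.26 and -0.25) and the fatty acid binding protein gene Fabp5 (-0.29 and -0.22) followed. As a class, te2 luminal cells held more Gpx3, at 4081 and 3576 CPM against 284 and 589 in sham, although within te2 it ran against Clu. With log UMIs and the Sbp and Spink1 share held constant, Ly6a kept 0.43 and 0.57, Gpx3 -0.31 and -0.30, and Ccnd2 -0.29 and -0.29.

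Sham luminal cells, with few Clu UMIs, showed little of this, but the genes were chosen by their detection and r in te2. In sham luminal cells of at least 1000 UMIs, Ly6a was detected in 2.30% and 1.09% and Lrg1 in 2.46% and 1.58%. Pigr, detected there in 87.9% and 79.9%, had r of -0.08 and -0.02. Ly6e, detected in 55.1% and 59.9%, had 0.01 and 0.04. The difference in r between groups was not tested. Among these positive genes, r in sham 1 and sham 2 was highest for Cxcl17, at 0.13 and 0.12, and it was 0.02 and -0.01 for Ly6a. Ly6c1 had no counts there in cells of at least 1000 UMIs, so r is undefined.

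In proximal te2 cells the leading gene was Ly6c1, at 0.44 and 0.54. The stress-response nuclear protein gene Nupr1 had 0.40 and 0.46, Pigr 0.33 and 0.38, Ly6a 0.33 and 0.54, and Cdcp3 0.32 and 0.40. Then came 9530002B09Rik (0.32 and 0.30), Psca (0.29 and 0.37), Fxyd4 (0.28 and 0.32), Saa1, an acute phase serum amyloid (0.25 and 0.46), and Rnf130 (0.23 and 0.30, and 0.05 and 0.13 with cells thinned to 1000 UMIs). Ly6a, Ly6c1, Pigr and Fxyd4 are the 4 genes shared by the luminal and proximal top 10. The negative end was weaker, with the class rule gene Wfdc2 at -0.19 and -0.20.

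In proximal cells some genes had opposite signs in the groups. Pigr had -0.32 in both sham libraries, 9530002B09Rik had -0.75 and -0.41, and Wfdc2 had 0.32 and 0.29, each opposite in sign to te2. Ranked in the sham libraries instead, a rule added after these values were seen, the top positive genes were Anxa1, which encodes a phospholipid-binding annexin (0.44 and 0.46), Igfbp7 (0.64 and 0.44) and Cyp2f2, a cytochrome P450 gene known from airway secretory cells (0.68 and 0.42). In te2 these had 0.17 and 0.16, -0.05 and -0.24, and -0.11 and -0.21. The most negative sham genes were the mechanosensitive channel gene Piezo2 (-0.73 and -0.42), 9530002B09Rik and Papss2. Sham 1 rests on 25 proximal cells and sham 2 on 129, and the difference between groups was not tested.

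For Cyp2f2, detection splits can be set beside these values. In sham 2, the 120 proximal cells with Cyp2f2 held 1785 CPM of Clu and the 49 without it 708 CPM, with thinned shares of 45.8% and 34.7%. In te2, proximal cells with Cyp2f2 held 1069 and 1833 CPM and those without it 1477 and 3354 CPM, with thinned shares of 37.4% and 45.3% against 38.5% and 53.2%. In sham 1, 21 of the 35 proximal cells had Cyp2f2, at 2850 CPM of Clu and a thinned share of 61.9%.

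**Figure D5:**
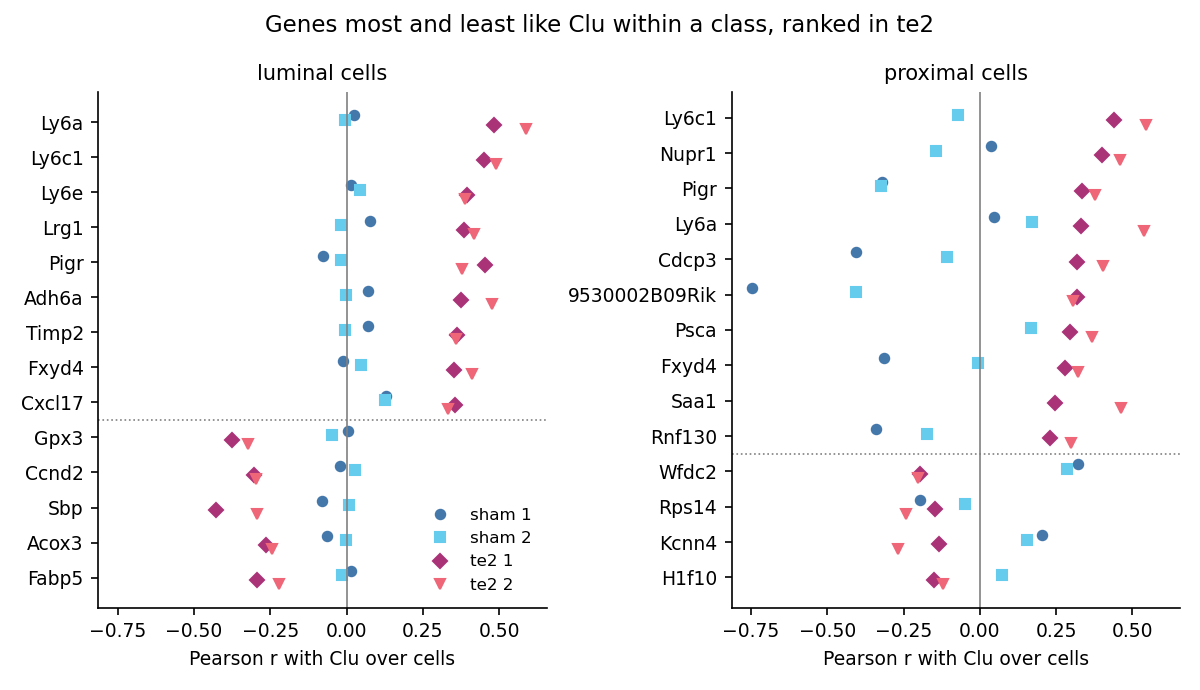
Pearson r with Clu over cells of at least 1000 UMIs within luminal (left) and proximal (right) cells, with 1 marker per library, for genes among the 10 most positive and, under the dotted line, the 5 most negative as ranked in the te2 libraries. Sham markers lie near 0 in luminal cells, whereas in proximal cells Pigr and 9530002B09Rik are negative in sham and positive in te2, and Wfdc2 is the reverse.

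Across classes and libraries, the pattern of Clu was most like that of other genes high in proximal cells and raised in te2 luminal cells. Over 20 class sums (5 classes in 4 libraries) and 5660 genes, Pearson r on log2(CPM + 10) was highest for the kinase gene Wnk2 (0.96), the water channel gene Aqp5 (0.94), Chchd10 (0.94), Gmpr (0.93), Prr15l (0.93), the tetraspanin gene Tspan8 (0.93), Nxpe2 (0.92) and the claudin gene Cldn10 (0.92). The sums share libraries and are not independent. Aqp5 stood at 7.40 and 15.9 CPM in sham luminal cells, 74.6 and 49.9 in te2 luminal cells, and between 89.9 and 216 in the 4 proximal sums. Cldn10 went from 128 and 123 CPM in sham luminal cells to 335 and 320 in te2, with 511 to 717 in proximal cells. Not every listed gene kept its proximal level: Nxpe2 went from 541 and 632 CPM in sham to 217 and 226 in te2. Prr15l went from 676 and 490 to 386 and 438 CPM there, and in luminal cells only from 105 and 76.0 to 146 and 130 CPM.

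Genes around clusterin were tested with edgeR's quasi-likelihood test on counts summed per class and library, with Benjamini-Hochberg adjustment over all genes of a class at FDR 0.05. In luminal cells 32.0% of the 10976 genes tested passed, 18.0% higher and 14.0% lower in te2. The shares were 10.3% of 10068 genes in proximal cells (5.54% higher, 4.78% lower), 7.73% of 9132 in basal cells (4.94% higher, 2.79% lower), 2.07% of 4450 in fibroblasts (0.764% higher, 1.30% lower) and 2.53% of 2173 in macrophages (1.29% higher, 1.24% lower). The higher share of all calls was 56.2% in luminal cells, 37.0% in fibroblasts and 50.9% in macrophages, against 66.7%, 51.9% and 80.0% with DESeq2 and, in fibroblasts, 51.9% with library totals alone. Expression in these tests is in CPM with TMM scaling, errors of log2 changes are standard errors, and the gene lists were chosen with earlier results of these data known.

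In macrophages Trem2, a lipid and clusterin receptor of myeloid cells, rose from 29.7 and 19.1 CPM (3 counts in all) to 1197 and 477 CPM (log2 change 5.03 ± 0.69, adjusted p = 0.00475, edgeR). It was the 1 riser of 9 members of the receptor and uptake list tested in macrophages, and 0 fell. Lrp1, a large endocytic receptor of the LDL receptor family, was highest in fibroblasts, at 1461 and 868 CPM in sham and 1162 and 1121 CPM in te2, and did not pass there (adjusted p = 0.944, edgeR). Luminal cells had 1 of 9 members higher and 4 lower. Those that fell included the phagocytic receptor gene Mertk (log2 change -1.91 ± 0.19), which also fell in proximal cells (-1.59 ± 0.41), and Lrp1, at 10.8 and 4.74 against 1.74 and 1.21 CPM. The luminal riser was Lrpap1 (0.96 ± 0.15), the chaperone of LDL receptor family proteins, and in proximal cells the sorting receptor gene Sort1 rose (0.74 ± 0.24). Sort1 lost the call without any 1 of the 4 libraries (0.62 to 1.44), Mertk in proximal cells without sham 2, te2 1 or te2 2, and Lrp1 in luminal cells without sham 1. Vldlr, another LDL receptor family member, did not pass in basal cells or fibroblasts, the classes where it was tested.

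Among other extracellular chaperones and lipid carriers, Apoe, the main apolipoprotein of macrophages, stood at 9837 and 7083 CPM in sham macrophages and 35452 and 20097 in te2, which did not pass (log2 change 1.71 ± 0.49, adjusted p = 0.0914, edgeR). In luminal cells 1 of 6 tested members rose and 3 fell. Cst3, a secreted protease inhibitor, rose there (0.998 ± 0.15), while Sparc, Apod and Apoe fell from sham levels of 53.5 CPM or less, the last pair losing the call without te2 2. With at least 1000 UMIs per cell the luminal Apoe value turned to 0.13, and it lost the call there. The luminal Apoe call did not hold in 5 alternatives in all. The part of free RNA from other classes in these luminal falls, and in those of Lrp1 and Serping1, was not tested. The haptoglobin gene Hp, which binds free hemoglobin, is listed in neither sham table and stood at 107 and 317 CPM in te2 fibroblasts, a call lost without te2 2.

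Of 7 complement genes tested in fibroblasts, whose terminal complex clusterin blocks, 3 rose and 0 fell. C7, a component of the membrane attack complex, went from 131 and 101 CPM to 1834 and 1124 CPM (log2 change 3.61 ± 0.32). C4b rose by 2.06 ± 0.36 and C3, the central component, by 1.05 ± 0.20, from 972 and 1080 to 2056 and 2179 CPM. Without te2 2, where 5 genes of all fibroblast genes passed, C4b and C3 lost the call, and C3 lost it without sham 1. In luminal cells Cd55, a membrane inhibitor of complement, rose (1.23 ± 0.20), and Serping1, which encodes the C1 inhibitor, fell from 14.9 and 7.63 CPM to 2.89 and 2.42 CPM. Neither of the 2 members tested in proximal cells passed.

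Of 21 intracellular chaperone genes tested, 11 rose in luminal, 9 in proximal and 8 in basal cells, and 0 fell in any of these classes. The proximal count was 4 without sham 2, 3 without te2 1 and 2 without te2 2. The list medians were 0.54, 0.69 and 0.89 (log2) against medians of -0.01, 0.06 and 0.09 over all genes tested. In luminal cells the mitochondrial chaperone genes Hspd1 (1.10 ± 0.12) and Hspe1 (0.98 ± 0.12) and the disulfide isomerase gene Pdia3 (1.08 ± 0.15) had the smallest p. Hspa5, the major chaperone of the endoplasmic reticulum, rose in proximal cells from 532 and 363 to 956 and 1220 CPM (1.37 ± 0.26) and in fibroblasts (1.24 ± 0.22), both calls lost without te2 2. It did not pass in luminal cells (0.42 ± 0.17, adjusted p = 0.0669, edgeR).

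Stress- and cytokine-responsive transcription factors, some known to act on the clusterin promoter, were also tested. In luminal cells 1 of 15 tested rose and 2 fell, and all 3 changes were under 1 on the log2 scale: Jund 0.38 ± 0.13, Rela -0.75 ± 0.25 and Jun -0.66 ± 0.23. In proximal cells Jund alone of 14 passed, at 1.41 ± 0.25. None of the 3 luminal calls held without te2 2 or sham 2, and the proximal Jund call was lost without sham 2.

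Of 20 apoptosis genes tested in luminal cells, 7 rose and 1 fell. Bax, a pore-forming killer whose action intracellular clusterin is known to restrain, rose from 34.7 and 34.2 to 76.4 and 94.3 CPM in luminal cells (1.31 ± 0.15). It rose by 1.46 ± 0.30 in proximal cells, where the survival gene Bcl2l1 fell (-0.86 ± 0.28) and 2 of 17 members rose and 1 fell. The Bcl2l1 call was lost without any 1 of the 4 libraries (-0.74 to -1.11). The initiator caspase gene Casp8 rose in luminal cells (1.41 ± 0.22). It lost the call among luminal cells without proximal marker UMIs, where 1086 of all genes passed against 3515 in the whole class.

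The list of genes induced by castration in rodent prostate, to which Clu belongs by history, held changes in both directions. Without Clu, 9 of 17 tested members rose and 5 fell in luminal cells, and 4 of 16 rose and 5 fell in proximal cells. Those that fell in proximal cells include Krt4, which the rule for that class uses. Without sham 2 or te2 2 the proximal counts were 2 and 2. Anxa1, the top-ranked sham correlate in proximal cells, rose in luminal cells (2.47 ± 0.17) and stood in proximal cells at 946 and 1421 CPM in sham and 1112 and 1064 CPM in te2, without passing (adjusted p = 0.755, edgeR). Tgfb2 fell (-2.16 ± 0.17) and its receptor gene Tgfbr2 rose (1.97 ± 0.16) in luminal cells. Igfbp5, which binds insulin-like growth factors, fell in proximal cells (-2.80 ± 0.20).

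Genes known from regenerating epithelia, where Clu marks damage-induced cells of the gut, were the last list. In luminal cells 10 of 17 tested rose and 1 fell. Among luminal cells without proximal marker UMIs 5 rose, where 638 of all genes were called higher in te2 against 1977 in the whole class. Krt7, a member of this list, is at 0 in those cells by the way they were chosen. In proximal cells 2 of 15 rose and 2 fell, and the difference between classes was not tested. Ly6a, the gene most correlated with Clu in luminal cells, went from 11.1 and 5.001 to 144 and 185 CPM in luminal cells and from 23.6 and 117 to 566 and 942 CPM in proximal cells. Proximal Sox9, a progenitor transcription factor, fell (-0.86 ± 0.22), as did Cd44, a hyaluronan receptor gene (-1.05 ± 0.30), each losing the call without te2 1 or te2 2, and Cd44 also without sham 2.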

How the data were processed

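The authors deposited raw UMI counts per gene and cell, and the submitters' processing notes name, without roles, Seurat 5.0.1, R 4.3.2, bustools 0.39.4, kallisto 0.46.1 and the build GRCm39. Genes that 1 table lists and another does not count as 0 in the latter. Cells with at least 500 UMIs and at most 20% mitochondrial counts were kept (1638, 2017, 2324 and 2112). Library totals were 3999690, 5513275, 12259610 and 13134017 UMIs. Doublets called by scrublet in scanpy 1.11.5 (97, 1.20%) stayed in and were left out as an alternative.

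Counts were summed per class and library (at least 20 cells each) and tested with edgeR 4.0.16 (TMM, default filter on low counts, two-sided), with DESeq2 1.42.0 as an alternative. Scripts were tested on simulated data. With 2 animals a group, p-values lean on a spread pooled over genes. Named correlates are taken from the 10 most positive and 5 most negative genes by the weaker te2 r. Named list members are up to 4 of smallest p per list and class, with partners of clusterin, and a few genes these rules name are not reported here. Members, lists and rules were chosen with earlier results of these data known. Replicate numbers were not found to pair animals, and no coordinates are given because the annotation at hand is of another build (GRCm38).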

Additional observations from a re-analysis of the deposited data

How the results depend on the processing

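With 2 libraries a group, sham Clu UMIs numbered 1 and 1 in macrophages, 0 and 0 in lymphocytes and 0 and 28 in basal cells, and sham 1 holds 35 proximal cells. The luminal log2 difference of Clu, 3.23, ranged from 2.86 to 3.70 with 1 library left out and was 2.15 in luminal cells without proximal marker UMIs, an alternative chosen after seeing the data. The proximal difference, -0.09, ranged from -0.60 to 0.26, and the basal one, 1.60, from 1.21 to 11.6, the last without sham replicate 2, which leaves a sham arm at 0 counts, and was 0.59 with class thresholds doubled. The fibroblast difference, 1.66 on 12 sham counts, ranged from 1.12 to 2.01.

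The te2 minus sham difference in Clu-positive share, thinned to 500 UMIs, was 21.1 percentage points in luminal cells (31.8 at 1000 UMIs, 10.0 for at least 2 UMIs, 59.9 unthinned), -1.49 in proximal cells (15.9 unthinned), 6.13 in basal cells (10.2, 0.691 and 18.9), 1.95 in fibroblasts (12.0 unthinned) and 1.38 in macrophages (-1.90 at 1000 UMIs, 0 for at least 2 UMIs). With 1 library left out it ranged from 19.2 to 22.9 (luminal), -6.42 to 3.45 (proximal), 4.88 to 7.38 (basal), 0.461 to 3.44 (fibroblast) and 0.498 to 2.25 (macrophage).

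The median r of the 10 top-ranked correlates, 0.38 in luminal cells, was 0.16 with cells thinned to 1000 UMIs and 0.32 as a partial r. In proximal cells it was 0.31, and 0.17 when thinned.

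Counts of genes called were 3515 in luminal cells (1662 with DESeq2, 1086 in cells without proximal marker UMIs), 1039 in proximal (259 with DESeq2), 706 in basal (233 with DESeq2, 407 with class thresholds doubled), 92 in fibroblasts (249 without a filter on low counts, 55 with at least 1000 UMIs per cell, 143 with at most 10% mitochondrial counts) and 55 in macrophages (83 by library totals alone, 183 without a filter, 115 with at most 10% mitochondrial counts, 117 with thresholds doubled, 100 without doublets). Leaving out 1 library gave 2498 to 3235 (luminal), 233 to 817 (proximal), 148 to 369 (basal), 5 to 211 (fibroblast) and 56 to 149 (macrophage). Apoe in luminal cells reversed to 0.13 with at least 1000 UMIs per cell.

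The deviations of same-numbered libraries correlated at -0.06 to 0.01. With the replicate block the counts were 614 (proximal), 456 (basal) and 19 (macrophage). Proximal cells with doubled thresholds, and basal and macrophage cells with at least 1000 UMIs, had too few cells and were not run.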
